A study of Mus musculus with 24 samples.

Results

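A direct comparison was made between serum exosomes of mice with a toxin injury of the liver and of mice with a dietary injury. The toxin group (ND+CCl4, which the labels call cirrhosis) received normal chow, tap water and carbon tetrachloride. The dietary group (WD+oil, which the labels call NASH, fatty liver with inflammation) received a high-fat diet, sugared drinking water (fructose at 23.1 g/L, glucose at 18.9 g/L), and corn oil. Both agents went into the abdomen 1 time per week, and all mice were male C57BL/6N at 40 weeks. The groups therefore differ in diet, in drinking water and in the injected agent, whose contributions to a difference cannot be told apart here. The comparison uses 12 of the 24 samples of the study, 6 per group; the chow and oil controls (ND+oil, 6 samples) are given beside it, and the samples of both treatments together (WD+CCl4, 6 samples) enter only the estimate of the spread.

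miRNAs were counted with the NanoString nCounter mouse panel, in which barcoded probes are counted without amplification. Of its 566 mouse miRNA probes, 158 exceeded the negative control limit (mean plus 2 SD of 8 control probes) in at least 6 of the 24 samples and were tested, and 59 of them exceeded it in all 12 libraries compared. The labels do not say that the samples came from separate animals, so p-values reflect only how far these samples spread, which may be technical. The panel counts no vesicle protein, so the exosome label was not checked, and liver histology was not analysed here.

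Serum vesicles carry miRNAs, short RNAs that pair with messenger RNAs through bases 2 to 8, the seed, and lower their output. Blood cells supply much of the miRNA in serum, and injured hepatocytes release their own abundant species, miR-122 foremost. Carbon tetrachloride is turned into a reactive radical by liver cytochrome P450 and kills hepatocytes around the central vein, with scarring on repeated dosing, whereas fat and sugar feeding leads to lipid storage in hepatocytes. The let-7 family, whose members share a seed, restrains growth genes such as Ras and Hmga2.

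The mature sequences of the 9 miRNAs that passed the test are shown as a description. Their seeds and base composition were not compared with those of the other miRNAs tested. Each is printed 5′ to 3′ with its seed in capitals, from RefSeq (GRCm38.p6), and the 5 that were higher in ND+CCl4 come first.
miR-340-5p (chromosome 11): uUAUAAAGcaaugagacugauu
let-7b (chromosome 15): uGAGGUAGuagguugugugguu
let-7g (chromosome 9): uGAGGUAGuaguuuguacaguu
miR-26b (chromosome 1): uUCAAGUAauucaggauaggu
miR-125a-5p (chromosome 17): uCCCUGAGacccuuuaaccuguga
miR-1224 (chromosome 16): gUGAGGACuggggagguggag
miR-132 (chromosome 11): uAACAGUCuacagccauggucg
miR-342-3p (chromosome 12): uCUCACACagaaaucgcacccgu
miR-762 (chromosome 7): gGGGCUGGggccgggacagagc
The 9 sequences hold 8 different seeds, since let-7b and let-7g share GAGGUAG and differ from each other at 4 of 22 bases. The 5 miRNAs higher in ND+CCl4 were 27.3% to 50% G and C, and the 4 higher in WD+oil were 50% to 81.8% G and C, given as a description of the listed sequences. Probe names without an arm were read as the arm that older nomenclature left unmarked.

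ND+CCl4 replicate 1 stood apart from the other 11 libraries. On the first principal component of the 12 libraries, which held 44.5% of the variance, it lay at 22.6 and the others between -8.26 and 5.18. It held the highest total count, 1496818 against 46576 to 1115412 in the other ND+CCl4 libraries and 48664 to 265265 in WD+oil, and had 203 miRNAs above the limit against at most 154. On the first component of all 24 libraries, WD+CCl4 replicate 1, which enters the estimate of the spread, lay beside it (22.3 and 23.7, the others at most 6.84). The counts of calls and the differences of the miRNAs that passed are therefore given with and without ND+CCl4 replicate 1, as are other values that move with it. The remaining ND+CCl4 libraries also differed among themselves: in replicate 5 miR-451, the abundant red cell miRNA, took 65.6% of the count, and replicate 3 had the lowest total. Mean log2 total count was 18.47 ± 1.87 (SD, n = 6) in ND+CCl4 and 16.92 ± 1.13 (SD, n = 6) in WD+oil, a difference of 1.55 that did not pass an exact permutation test (two-sided p = 0.134, adjusted over 3 library measures 0.292). The haemolysis index, log2 miR-451 minus log2 miR-23a, was 3.85 ± 1.51 against 2.96 ± 0.62 (SD, n = 6 each; exact permutation p = 0.223, adjusted 0.292). Without replicate 1 these differences were 1.14 for the total (exact p = 0.260) and 1.14 for the index (exact p = 0.139), and adjusted p was 0.390 for both. Without replicate 5 instead, the difference in the index was 0.396 (exact p = 0.446) in place of 0.898. The number of miRNAs above the limit averaged 138 ± 43.2 and 112 ± 34.6 (SD, n = 6 each), a difference of 26.2 (exact permutation p = 0.292), and of 13.1 without replicate 1 (exact p = 0.558).

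Values varied more among ND+CCl4 than among WD+oil libraries. The median SD over the 158 miRNAs was 1.00 in ND+CCl4, 0.67 without its replicate 1, and 0.52 in WD+oil, on the log2(value + 1) scale. The ND+CCl4 SD was the larger one for 142 of 158 miRNAs, and for 120 of 158 without replicate 1.

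Few miRNAs separated the injuries. Over 158 miRNAs, 9 passed limma's test at an adjusted p under 0.05 (5.7%), 5 higher in ND+CCl4 (3.16%) and 4 higher in WD+oil (2.53%), and 31 had an unadjusted p under 0.05. Without ND+CCl4 replicate 1, 11 passed (6.96%), 6 higher in ND+CCl4 (3.8%) and 5 higher in WD+oil (3.16%), and 33 had an unadjusted p under 0.05. Both fits called miR-340-5p, let-7b, miR-26b, miR-125a-5p, miR-1224, miR-132 and miR-342-3p, which makes 7 shared calls. The median difference over all 158 miRNAs was 0.03 on the log2 scale, and -0.03 without replicate 1.

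Among miRNAs higher after the toxin, miR-340-5p had the smallest p. Its deposited value was 167 to 517 in ND+CCl4 (median 249) and 57.4 to 126 in WD+oil (median 74.1), so the groups did not overlap. The difference was 1.73 on the log2 scale (SE 0.31, 3.33-fold, limma adjusted p = 0.00127), and 1.54 without replicate 1 (SE 0.30, adjusted p = 0.00132). It exceeded the negative control limit in 5 of 6 ND+CCl4 and 3 of 6 WD+oil libraries, so the level in WD+oil lies near background and the fold is uncertain in size.

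The let-7 family supplied 2 of the 5 miRNAs higher in ND+CCl4. For let-7b, the values were 1201 to 3622 in ND+CCl4 (median 2053) and 366 to 1466 in WD+oil (median 865). Only ND+CCl4 replicate 1 at 1201 and WD+oil replicate 1 at 1466 crossed, so that without ND+CCl4 replicate 1 the groups did not overlap. The difference was 1.41 (SE 0.32, 2.66-fold, limma adjusted p = 0.0114), and 1.59 without replicate 1 (SE 0.31, adjusted p = 0.00132). For let-7g, the more abundant of the pair, values were 1911 to 7593 (median 4691) against 1262 to 2833 (median 2205). ND+CCl4 replicate 2 lay within the WD+oil range. The let-7g difference of 1.04 (SE 0.31, 2.06-fold, limma adjusted p = 0.0399) was 0.97 without replicate 1 and then missed the threshold (SE 0.31, adjusted p = 0.0603).

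All 9 let-7 members on the panel were tested, and all carry the GAGGUAG seed; how far their probes read each other's miRNA was not tested. In ND+CCl4, 6 members were higher and 3 lower than in WD+oil, with 2 of 9 past the test (let-7b and let-7g; 5.7% of all 158 miRNAs passed) and a median difference of 0.57 beside 0.03 for all 158 miRNAs. Without replicate 1, 7 were higher and 2 lower, with 1 of 9 past the test (let-7b; 6.96% of all passed) and a median of 0.97. The summed level of the family was 5672 to 17637 in ND+CCl4 (median 9120.5) and 3053 to 6899 in WD+oil (median 5579), which overlap. let-7c, which differs from let-7b at 1 base, had a difference of 1.15 and did not pass (limma adjusted p = 0.16). let-7e and let-7f lay on the other side of 0 at -0.60 and -0.49, but at -0.22 and -0.02 without replicate 1. let-7a was not evenly measured: it was under 6 units in 7 of the 12 libraries and 362 to 962 in the other 5, and its difference of 1.14 had an SE of 1.96 (2.02 and 1.98 without replicate 1).

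miR-26b and miR-125a-5p complete the miRNAs higher in ND+CCl4. miR-26b, of a family known to repress the histone methyltransferase Ezh2, read 90.3 to 563 (median 315) against 52.9 to 159 (median 106), with ND+CCl4 replicate 3 inside the WD+oil range. Its difference was 1.38 (SE 0.36, 2.61-fold, limma adjusted p = 0.0183) and 1.27 without replicate 1 (SE 0.37, adjusted p = 0.0311), but only 3 of 6 WD+oil libraries exceeded the limit. miR-125a-5p, a mammalian relative of the worm miRNA lin-4, read 335 to 818 (median 600) against 228 to 382 (median 245). Here the lowest ND+CCl4 value, in replicate 5, lay below the highest WD+oil value, in replicate 1, and no other pair of libraries crossed. Its difference was 1.18 (SE 0.31, 2.26-fold, limma adjusted p = 0.0214) and 1.19 without replicate 1 (SE 0.33, adjusted p = 0.0278).

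**Figure D1:**
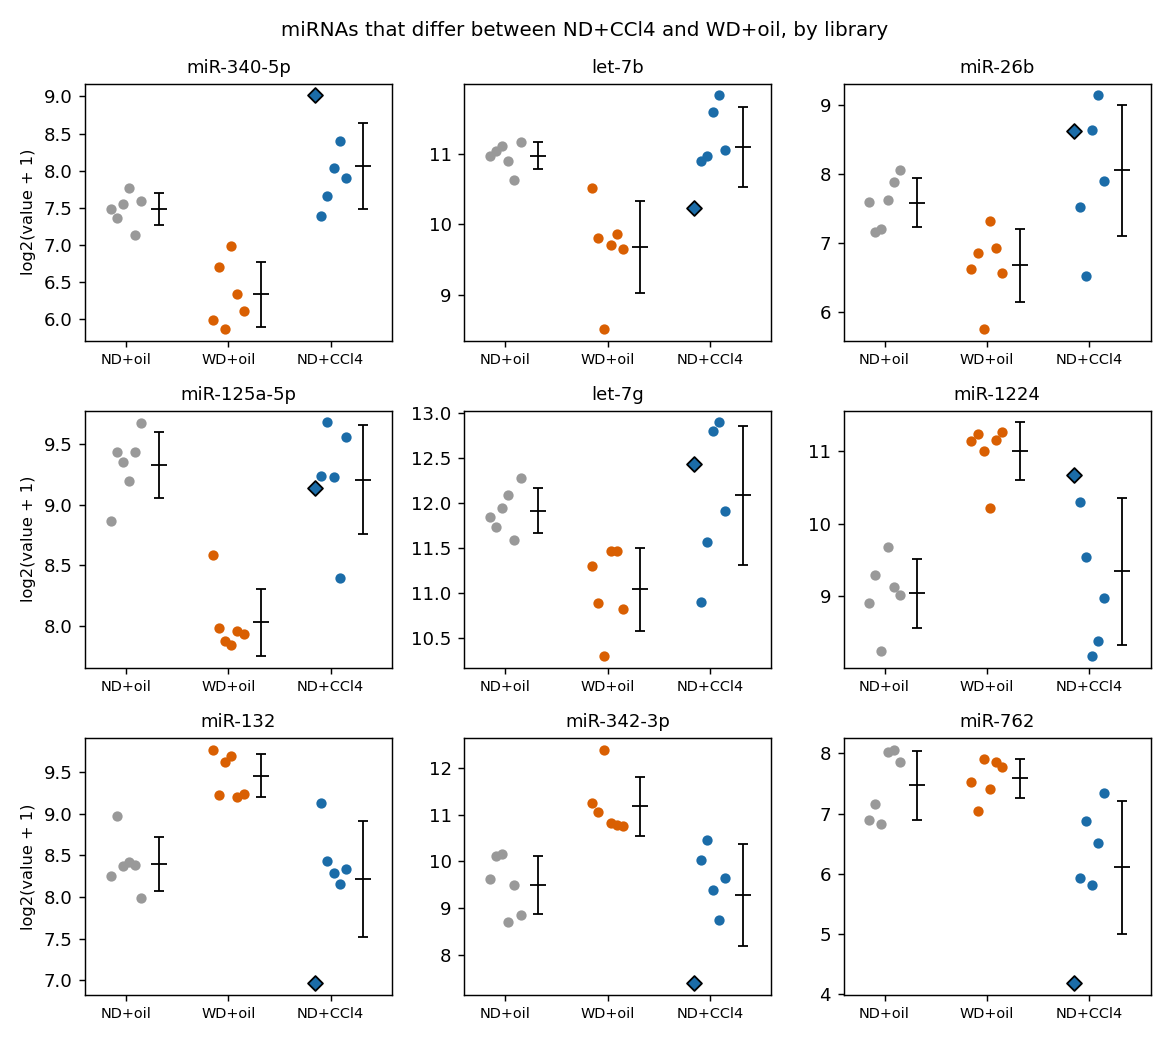
Level of the 9 miRNAs that passed, as log2(deposited value + 1) on the vertical axis, in the ND+CCl4, WD+oil and ND+oil libraries (6 points per group, ND+CCl4 replicate 1 as a diamond), with the mean and SD of each group beside its points. miR-340-5p, miR-132 and miR-342-3p show no overlap between ND+CCl4 and WD+oil.

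On the dietary side, miR-342-3p, an abundant miRNA of lymphocytes, had the largest difference of the 9. Its value was 168 to 1408 in ND+CCl4 (median 737) and 1719 to 5351 in WD+oil (median 1970). Every WD+oil library lay above every ND+CCl4 library. The difference was -1.89 (SE 0.47, 3.71-fold higher in WD+oil, limma adjusted p = 0.0145) and -1.52 without replicate 1 (SE 0.42, adjusted p = 0.0278). Without WD+oil replicate 3, the library at 5351, it no longer passed (limma adjusted p = 0.060).

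miR-132, induced by the transcription factor CREB in neurons, also separated the groups without overlap. It read 124 to 558 in ND+CCl4 (median 317) and 589 to 873 in WD+oil (median 695). The difference was -1.24 (SE 0.31, 2.37-fold higher in WD+oil, limma adjusted p = 0.0145) and -0.99 without replicate 1 (SE 0.27, adjusted p = 0.0278). Both miRNAs exceeded the limit in all 12 libraries.

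miR-1224, which is cut from a short intron by splicing rather than by Drosha (a mirtron), read 289 to 1631 in ND+CCl4 (median 623) and 1183 to 2447 in WD+oil (median 2254). The groups overlapped through ND+CCl4 replicates 1 and 2, at 1631 and 1261, and WD+oil replicate 4, at 1183. The difference was -1.65 (SE 0.38, 3.14-fold higher in WD+oil, limma adjusted p = 0.0124) and -1.92 without replicate 1 (SE 0.36, adjusted p = 0.00132). miR-762 was the dimmest of the 4, at 17.1 to 161 (median 74.8) against 132 to 238 (median 200), above the limit in 3 of 6 and 5 of 6 libraries. The groups overlapped through ND+CCl4 replicate 6 at 161 and WD+oil replicate 2 at 132. Its difference was -1.48 (SE 0.42, 2.79-fold higher in WD+oil, limma adjusted p = 0.0308) and -1.09 without replicate 1, where it missed the threshold (SE 0.35, adjusted p = 0.0603).

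Of the 9 miRNAs, 5 exceeded the limit in all 12 libraries: let-7b, let-7g, miR-1224, miR-132 and miR-342-3p. Groups that did not overlap were found for 4 of 158 miRNAs (2.53%), namely miR-340-5p, miR-132, miR-342-3p and miR-1894-3p. Without ND+CCl4 replicate 1 there were 10 of 158 (6.33%), with let-7b, miR-714, miR-200a, miR-802, miR-181a and miR-29c added. miR-1894-3p did not pass the test, with a difference of -2.07 (SE 0.73, limma adjusted p = 0.111, and -2.05 without replicate 1). Its values were 8.75 to 21.2 and 27.3 to 142, above the limit in 0 of 6 and 3 of 6 libraries. All its values in WD+oil replicates 1 to 3 lay under the limit. The counts were multiplied by factors of 3.90 to 5.72 in those libraries and of 0.397 to 5.31 in ND+CCl4. Its lack of overlap thus rests on scaled background levels and does not show that the groups separate. The calls rest on a spread estimated from all 24 samples. Fitted on the 12 libraries alone, limma passed only miR-340-5p (adjusted p = 0.0135) and miR-1894-3p, and 26 miRNAs had an unadjusted p under 0.05. Without ND+CCl4 replicate 1 the same fit on 11 libraries passed 10 miRNAs, 4 higher in ND+CCl4 and 6 higher in WD+oil, which included 6 of the 9 (all but let-7g, miR-26b and miR-762).

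Both injury groups can be set against the same control libraries, given here as values with no test. let-7b read 1582 to 2302 in ND+oil and miR-125a-5p 465 to 815, which puts the control medians of 2045 and 672 close to those of ND+CCl4 and above all WD+oil libraries. let-7b differed from control by 0.12 in ND+CCl4 and by -1.29 in WD+oil, and miR-125a-5p by -0.12 and -1.30. For let-7g the values were 0.17 and -0.87. The same holds in the other direction for miR-1224, miR-132 and miR-342-3p, whose differences from control were 0.30, -0.18 and -0.22 in ND+CCl4 and 1.95, 1.06 and 1.68 in WD+oil. miR-762 had the opposite layout, with -1.36 in ND+CCl4 and 0.12 in WD+oil. miR-340-5p lay between, at 0.59 and -1.15, as did miR-26b at 0.47 and -0.91. Without replicate 1 the ND+CCl4 differences from control were 0.30 for let-7b, 0.10 for let-7g, -0.11 for miR-125a-5p, 0.40 for miR-340-5p and 0.36 for miR-26b. For miR-1224, miR-132, miR-342-3p and miR-762 they were then 0.03, 0.07, 0.16 and -0.98, with the sign of miR-132 and miR-342-3p turned.

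Leaving out ND+CCl4 replicate 1 added 4 miRNAs. Of these, only miR-181a also passed with background subtracted, and none passed with the haemolysis covariate. miR-181a, an abundant miRNA of lymphocytes, read 27.4 in replicate 1 and 351 to 999 in the other 5 ND+CCl4 libraries, against 137 to 276 in WD+oil. Its difference moved from 0.73 (limma adjusted p = 0.583) to 1.43 (SE 0.40, adjusted p = 0.0278). It exceeded the limit in 6 of 6 ND+CCl4 and 4 of 6 WD+oil libraries. miR-200a, which restrains the transcription factors Zeb1 and Zeb2 in epithelia, moved from 0.82 (limma adjusted p = 0.242) to 1.18 (SE 0.33, adjusted p = 0.0291), and exceeded the limit in 5 of 6 ND+CCl4 and 3 of 6 WD+oil libraries. miR-2137 moved from -1.64 (limma adjusted p = 0.174) to -2.07 (SE 0.63, adjusted p = 0.0427). miR-714 moved from -1.22 (limma adjusted p = 0.0598) to -1.41 (SE 0.38, adjusted p = 0.0278), but exceeded the limit in only 1 of 6 ND+CCl4 and 2 of 6 WD+oil libraries. The first 3 read as follows, with seeds in capitals and from RefSeq as above.
miR-181a (chromosomes 1 and 2): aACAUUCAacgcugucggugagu
miR-200a (chromosome 4): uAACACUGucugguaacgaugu
miR-2137 (chromosome X): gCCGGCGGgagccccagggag

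**Figure D2:**
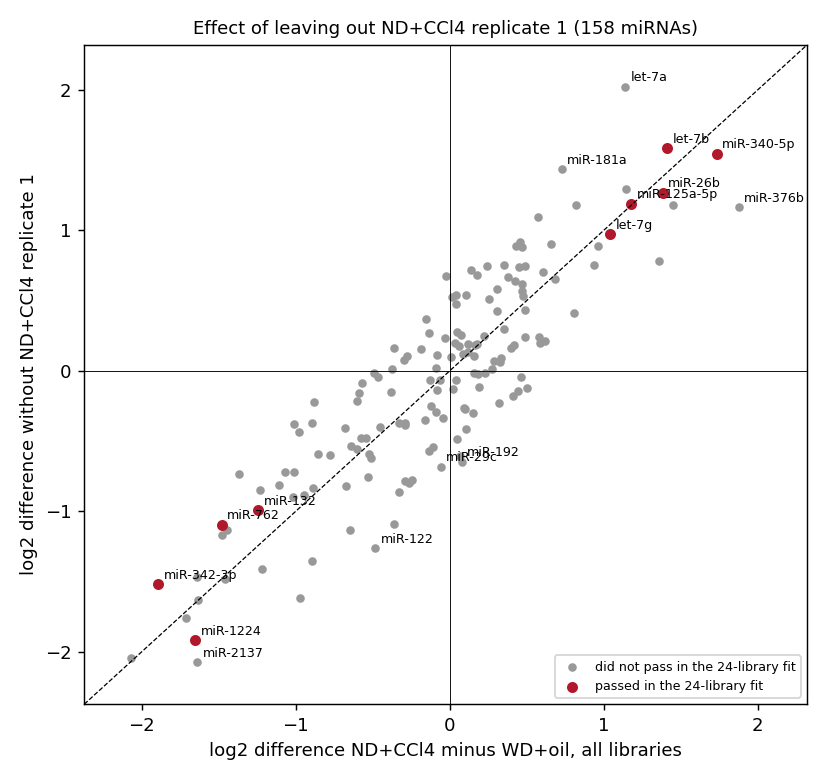
Log2 difference of each of the 158 miRNAs (ND+CCl4 minus WD+oil) with all libraries on the horizontal axis and without ND+CCl4 replicate 1 on the vertical axis; red points passed in the fit to all 24 libraries and the dashed line marks equal values. miR-181a lies above the line (0.73 and 1.43), and miR-122 (-0.49 and -1.26) and miR-192 (0.08 and -0.65) lie below it.

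Of the 5 hepatocyte-enriched miRNAs tested, 0 passed between the injuries with all libraries or without ND+CCl4 replicate 1. Over all 158 miRNAs 5.7% and 6.96% passed, shares at which few of 5 would be called. Other fits called miR-148a and miR-802 as higher in WD+oil. These were library weights (28 of 158 passed), replicates 4 to 6 alone (27), and ND+CCl4 and WD+CCl4 replicate 1 both left out (21). The compared groups alone, without ND+CCl4 replicate 1, passed miR-802 among 10. miR-802 exceeded the limit in only 2 of 6 ND+CCl4 and 3 of 6 WD+oil libraries. miR-122, which dominates the miRNA pool of hepatocytes, read 809 to 60750 in ND+CCl4 (median 3358) and 2949 to 10211 in WD+oil (median 6359), while the controls read 78 to 313. Every library of both injury groups lay above every control, and the injury groups overlapped, with 60750 in ND+CCl4 replicate 1 and at most 6961 in the other 5. The difference was -0.49 (SE 0.86, 95% interval -2.25 to 1.28, limma adjusted p = 0.841). Without replicate 1 it was -1.26 (SE 0.73, interval -2.78 to 0.25, limma adjusted p = 0.287). miR-192, another liver miRNA, read 394 to 19175 (median 1232) against 823 to 4297 (median 1224), with controls at 109 to 230. Its difference was 0.08 (interval -1.58 to 1.74, limma adjusted p = 0.974), and -0.65 without replicate 1 (interval -2.08 to 0.78). For miR-122 with all libraries the interval of the ratio of ND+CCl4 to WD+oil ran from 0.211 to 2.42, and the p-values do not show that the levels were alike.

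Replicate 1 carried the high values of the other liver miRNAs as well. miR-148a read 51812 there, 1670 to 4405 in the other ND+CCl4 libraries and 3377 to 8431 in WD+oil. Its difference was -0.36 (limma adjusted p = 0.841), and -1.09 without replicate 1 (SE 0.51, adjusted p = 0.222). The list held 5 tested members, miR-122, miR-192, miR-148a, miR-802 and miR-365. With all libraries 1 was higher and 4 lower in ND+CCl4 and 0 passed. Its median was -0.36 beside 0.03 for all miRNAs, and -1.09 beside -0.03 without replicate 1, when all 5 were lower. Scaled by spike-in probes instead, the list median was 0.93, above 0, where the median of all 158 miRNAs was itself 1.32. The summed level was 2932 to 132420 in ND+CCl4 and 7781 to 22548 in WD+oil. In serum, fewer releasing cells and less RNA per cell cannot be told apart. miR-29c, from a family that represses collagen genes, had a similar layout, with 8008 in replicate 1, 479 to 675 in the other 5 and 750 to 1306 in WD+oil, and did not pass (limma adjusted p = 0.974, and 0.202 without replicate 1).

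**Figure D3:**
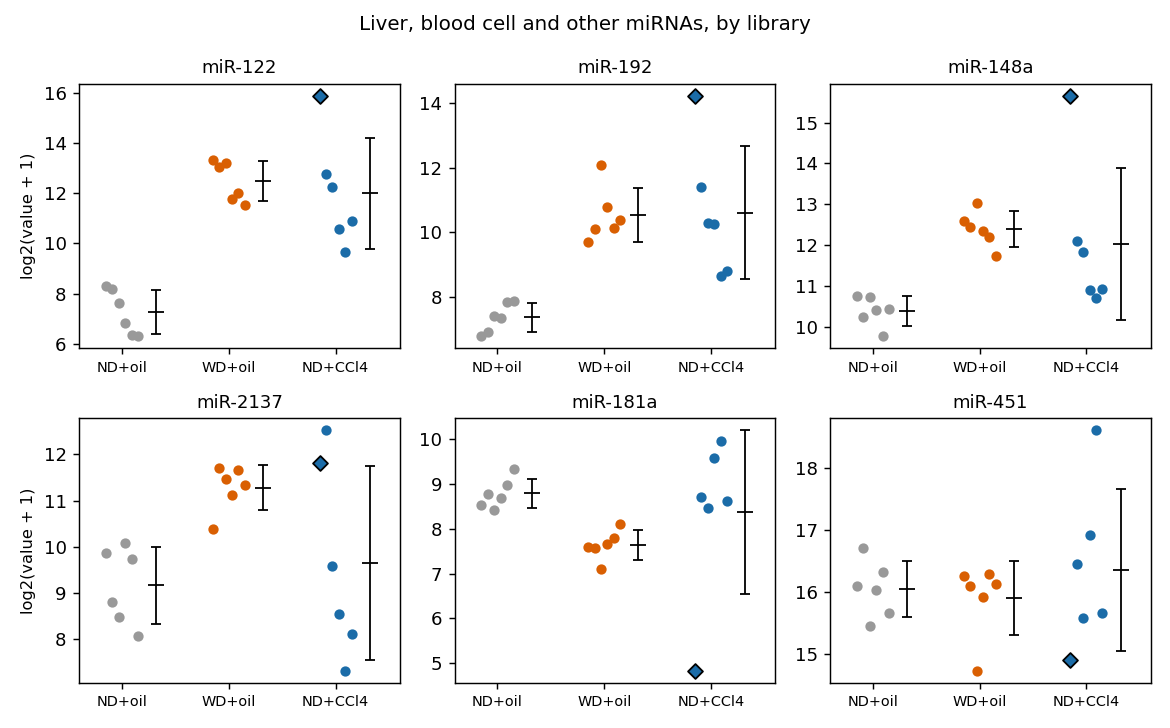
Level of miR-122, miR-192, miR-148a, miR-2137, miR-181a and miR-451 as log2(deposited value + 1) in the ND+CCl4, WD+oil and ND+oil libraries (6 points per group, ND+CCl4 replicate 1 as a diamond), with mean and SD. The diamond is the highest ND+CCl4 point for miR-122, miR-192 and miR-148a (60750, 19175 and 51812) and the lowest for miR-181a (27.4).

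Blood cell miRNAs lay on both sides of 0. In the leukocyte list 4 of 7 tested members were higher and 3 lower in ND+CCl4. The 1 past the test was miR-342-3p, lower, beside 5.7% of all 158 miRNAs. The list median was 0.01 beside 0.03 for all miRNAs. Without replicate 1, miR-181a passed as higher and miR-342-3p as lower, beside 6.96% of all miRNAs, with a list median of 0.52. The myeloid miR-223 and the lymphoid miR-150 differed by 0.01 and 0.04, and by 0.52 and 0.54 without replicate 1. Replicate 1 held the lowest ND+CCl4 value of miR-223, 2167 against a group median of 17138. miR-146a, an NF-kB target that dampens inflammatory signalling, read 906 to 4785 against 2920 to 8272 and did not pass at -1.01 (SE 0.38, limma adjusted p = 0.149; -0.72 and 0.229 without replicate 1). Of the red cell miRNAs, miR-451 differed by 0.45, miR-144 by -0.47 and miR-486 by -0.98, and 0 of 3 passed. Without replicate 1 these differences were 0.74, -0.04 and -0.43, and again 0 of 3 passed. At shares of 5.7% and 6.96% over all miRNAs, few of 3 would be called. miR-451 reached 399945 in ND+CCl4 replicate 5, against 27083 to 80511 in WD+oil. The red cell list summed to 31091 to 408426 in ND+CCl4 and 33837 to 87100 in WD+oil.

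Of the other lists, 0 members passed in the miR-15/16, miR-17-92, miR-29, miR-30, miR-23/24/27, miR-130 and miR-301, muscle, platelet and endothelial, Dlk1-Dio3 and Sfmbt2 lists with all libraries. Over all 158 miRNAs 5.7% passed, a share at which few members of any list here would be called. The medians of these lists ran from -0.26 in miR-23/24/27 to 0.50 in the 7 tested members of the Dlk1-Dio3 cluster, and the latter became -0.12 without replicate 1. In that cluster miR-376b read 1198 and 397 in ND+CCl4 replicates 1 and 2, and 20.1 to 61.4 in the other 4, against 9.67 to 44.1 in WD+oil. It did not pass at 1.88 (limma adjusted p = 0.194), or at 1.16 without replicate 1. It exceeded the limit in 3 of 6 ND+CCl4 and 0 of 6 WD+oil libraries, so its WD+oil level lies near background. The fibrosis and liver cancer list, which holds miR-21, miR-221, miR-222 and both arms of miR-199a, had 4 of 5 members higher, 0 past the test and a median of 0.12. miR-21, raised in many fibrotic tissues, read 2900 to 43776 (median 5865) against 4302 to 8541 (median 5475), a difference of 0.46 (limma adjusted p = 0.754) and of -0.05 without replicate 1. In the neuronal list miR-132 was the 1 member of 3 that passed, beside 5.7% of all 158 miRNAs, and miR-128 and miR-138 did not. In the miR-99/100 and miR-125 list 1 of 3 passed, miR-125a-5p, beside the same share, with a median of 0.33. A single call in a list of 3 does not set that list apart.

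**Figure D4:**
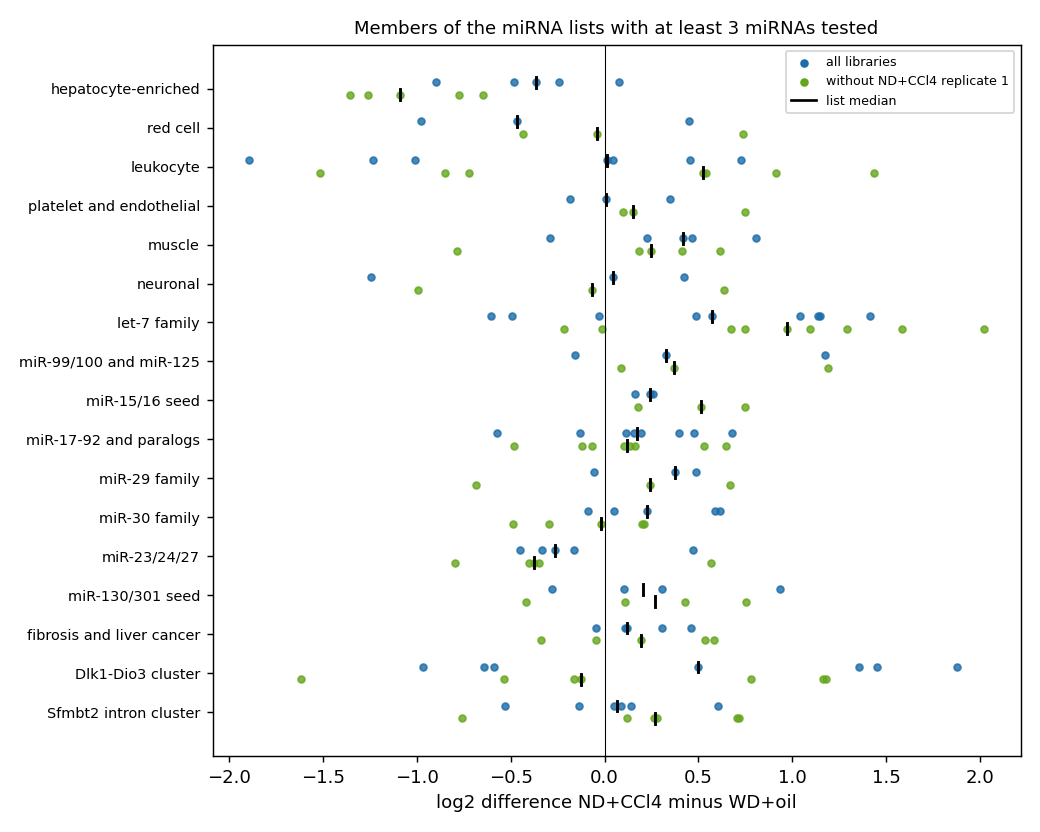
Log2 difference ND+CCl4 minus WD+oil for each tested member of the 17 lists with at least 3 tested members, with all libraries in blue and without ND+CCl4 replicate 1 in green; black ticks are list medians. The hepatocyte-enriched median moves from -0.36 to -1.09 and the let-7 median from 0.57 to 0.97. Spike-in scaling with all libraries puts them at 0.93 and 1.87, where the median of all 158 miRNAs is 1.32.

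In WD+oil, replicates 1 to 3 and 4 to 6 differed in depth, with totals of 48664 to 75896 and of 241694 to 265265 in turn. In ND+CCl4 the totals of both sets overlapped, at 46576 to 1496818 and 219140 to 1115412. The labels name no batch. Within replicates 1 to 3, which hold ND+CCl4 replicate 1, limma passed 0 miRNAs (0%), and 14 had an unadjusted p under 0.05. Without ND+CCl4 replicate 1 these counts were 0 and 7. Both fits keep WD+CCl4 replicate 1, which also stood apart, in the estimate of the spread, and the second holds fewer libraries. Their counts therefore do not compare like with like with those of replicates 4 to 6. Within replicates 4 to 6 limma passed 27 (17.1%), 11 higher in ND+CCl4 and 16 higher in WD+oil, and these included all 9. The 9 were chosen on the libraries of both sets together, so agreement between the sets is partly built in and is no separate evidence. Each of the 9 had the same sign in both sets, from 0.80 to 1.84 in replicates 1 to 3 and 1.15 to 1.75 in replicates 4 to 6 for the 5 higher in ND+CCl4. For the 4 higher in WD+oil, the values were -2.27 to -0.95 and -2.35 to -1.12. Without replicate 1, the values in replicates 1 to 3 were 0.40 to 1.34 and -1.32 to -0.76. The difference between the sets was itself tested and passed for 0 miRNAs in limma, with 10 at an unadjusted p under 0.05, and 5 without replicate 1.

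By size, the largest difference between the sets lay in the unevenly measured let-7a, at 3.81 (SE 2.51, limma adjusted p = 0.580), followed by miR-2137 and miR-432; miR-483 is named for its small p, after its values were seen. miR-2137 read 3574, 5877 and 760 in ND+CCl4 replicates 1 to 3 and 157 to 369 in replicates 4 to 6, while WD+oil read 1326 to 3339. Its contrast was 0.12 within replicates 1 to 3 and -3.40 within replicates 4 to 6, a difference of -3.51 (SE 0.97, limma adjusted p = 0.124), or of -3.26 without replicate 1 (adjusted p = 0.293). miR-432 had -0.21 and -3.21 (difference -3.00, SE 0.71, limma adjusted p = 0.054), and miR-483 had -0.18 and -3.08 (difference -2.90, SE 0.87, adjusted p = 0.162). miR-432 exceeded the limit in 1 of 6 ND+CCl4 and 3 of 6 WD+oil libraries, and miR-483 in 3 of 6 of each group. Neither exceeded it in WD+oil replicates 1 to 3, so their contrasts in that set rest on levels near background. The contrasts of miR-122 were 0.43 and -1.40 and those of miR-192 were 1.36 and -1.20, and neither difference passed the test. Without replicate 1 the first of each pair was -0.70 for miR-122 and 0.23 for miR-192, so the opposite signs of miR-122 rest on that library.

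**Figure D5:**
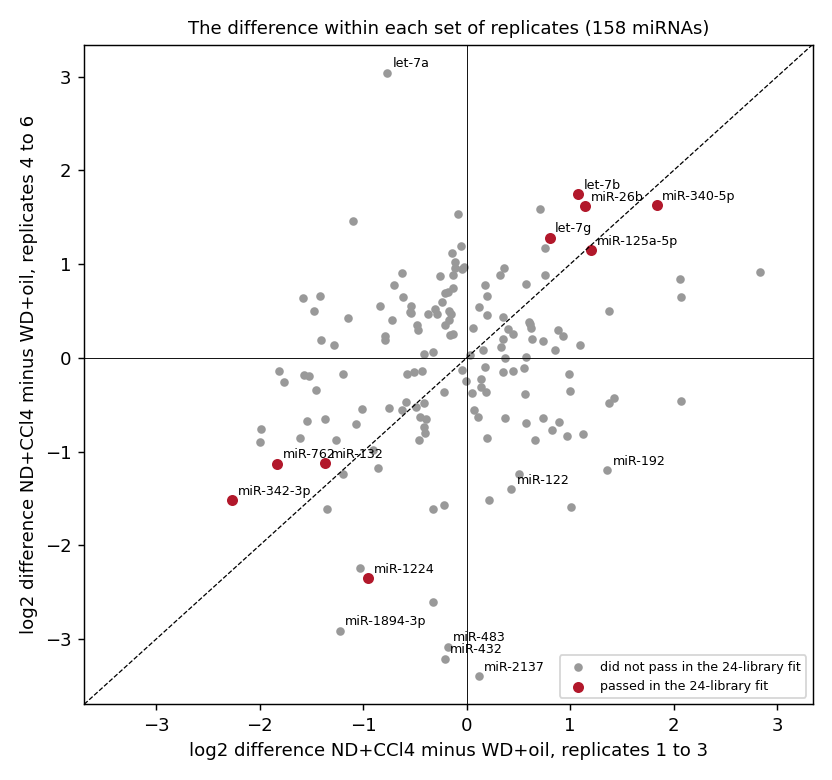
Log2 difference ND+CCl4 minus WD+oil of each of the 158 miRNAs in replicates 1 to 3 (horizontal axis) and in replicates 4 to 6 (vertical axis); red points passed in the fit to all 24 libraries and the dashed line marks equal values. The 9 red points, chosen on both sets together, lie where both differences have the same sign. miR-2137 (0.12 and -3.40) and miR-432 (-0.21 and -3.21) lie far below the line. miR-432 did not exceed the negative control limit in WD+oil replicates 1 to 3.

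Beyond the calls, several miRNAs with small p-values did not pass and are given as values. miR-872 read 26.2 to 84.2 in ND+CCl4 (median 69.5) and 17.6 to 45.7 in WD+oil (median 30.6), a difference of 0.97 (SE 0.33, limma adjusted p = 0.105; 0.89 without replicate 1). miR-410, a member of the Dlk1-Dio3 cluster, read 25.9 to 187 (median 68.9) against 14 to 35.3 (median 33.8), a difference of 1.45 (SE 0.51, limma adjusted p = 0.111; 1.18 without replicate 1). Neither exceeded the limit in any WD+oil library, so both differences rest on levels near background. miR-540-3p, of the same cluster, lay on the other side, with 523 in ND+CCl4 replicate 1, a group median of 25.2, and 67.7 to 172 in WD+oil. Its difference was -0.97 (limma adjusted p = 0.483), and -1.62 without replicate 1 (SE 0.57, adjusted p = 0.10). miR-151-5p was measured at higher levels, 74.7 to 322 (median 217) against 75 to 151 (median 117). It exceeded the limit in 6 of 6 ND+CCl4 but only 3 of 6 WD+oil libraries. The difference was 0.66 (limma adjusted p = 0.302), or 0.90 without replicate 1 (adjusted p = 0.107). miR-142-5p, of a haematopoietic precursor, read 93.7 to 1779 (median 298) against 486 to 1709 (median 779) at -1.24 (limma adjusted p = 0.196), while the other arm of that precursor, miR-142-3p, differed by 0.46 (adjusted p = 0.732). Without replicate 1 these were -0.85 and 0.91, and neither passed.

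Single libraries decided some of the calls. With each of the 12 libraries left out in turn, miR-340-5p, let-7b, miR-1224 and miR-132 passed limma in 12 of 12 fits (highest adjusted p 0.00594, 0.0339, 0.0339 and 0.0457). miR-26b was lost without WD+oil replicate 3, ND+CCl4 replicate 4 or ND+CCl4 replicate 5, and miR-125a-5p without WD+oil replicate 3 or 6 or ND+CCl4 replicate 4 or 6. miR-762 passed in 7 of 12 fits and let-7g in 5 of 12 (highest limma adjusted p 0.139).

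Values near background and the scaling both touch the calls. With the negative control mean subtracted, limma passed 7 miRNAs; miR-26b (2.07 in place of 1.38, adjusted p = 0.394) and miR-762 (-1.78 in place of -1.48, adjusted p = 0.124) no longer passed, though their differences were larger in size. With scaling by the spike-in probes, 0 passed in limma, 37 had an unadjusted p under 0.05, and the median of all 158 miRNAs moved to 1.32. Under that scaling the 5 miRNAs higher in ND+CCl4 differed by 2.34 to 3.03, and miR-1224, miR-132, miR-342-3p and miR-762 by -0.36, 0.05, -0.60 and -0.18, all below the median of 1.32. ND+CCl4 replicate 1 had the lowest spike-in level of the 12 libraries in deposited units. With the haemolysis index as a covariate, limma passed 12 miRNAs, among them 8 of the 9 (let-7g did not pass), and without replicate 1 it passed 4, let-7b, miR-1224, miR-125a-5p and miR-340-5p. In these fits the differences of the 9 were 0.87 to 1.86 and -1.94 to -1.29, and 0.70 to 1.63 and -1.89 to -0.95 without replicate 1.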

How the data were processed

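Per the labels' protocols, exosomal RNA of mouse serum was prepared by a miRNeasy micro kit and counted with the Mouse v1 nCounter panel. The deposited unit is signal: from the values, the authors multiplied each sample's digital counts by 1 factor (0.397 to 5.72) and listed values under 1 as 1. The sources used here do not give the scaling software, the cartridges or the method of exosome isolation. Divided by that factor, 14571 of 14571 values above 1 were whole (100%, tolerance 0.05 counts), and 117 values stood at 1. The negative and positive control probes were left out of this check. Their deposited values were taken as counts without scaling, and the negative control limit rests on that reading. Totals of 46576 to 1496818 in the 12 libraries set the precision.

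The test was limma 3.58.1 (R 4.3.3, lmFit, eBayes with trend) on log2(value + 1). It used 4 group means over 24 samples, two-sided, with Benjamini-Hochberg adjustment over 158 miRNAs and a threshold of 0.05. Folds of low miRNAs can be understated on this scale, since background enters both groups. They can also be overstated, since background counts were multiplied by each library's factor. It was 3.90 to 5.72 in WD+oil replicates 1 to 3 and 0.397 to 0.547 in ND+CCl4 replicates 1, 4 and 5. Of the probes tested, 4 are shared by several miRNAs. Library measures had exact two-sided permutation tests, whose smallest possible p is 0.00216 for 6 against 6. On recovered counts, edgeR 4.0.16 called 15 and DESeq2 1.42.0 called 22 miRNAs. The recovery and the limma script were tested on simulated data. Other scalings, filters, tests, covariates and left-out libraries were tried.

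Named miRNAs are those past the threshold with and without ND+CCl4 replicate 1, up to 12 per direction, the 10 per direction with the smallest p, those whose groups do not overlap, a fixed set of liver, blood and let-7 miRNAs, list members, and up to 3 with the largest difference between replicate sets. The members and the 19 lists were chosen with earlier results of these data known. Same-numbered samples of the 2 groups were checked for pairing by the correlation of their deviations from group means. Of these correlations, 4 of 6 exceeded 0.1 (range -0.07 to 0.43). Only 1 of 6 ND+CCl4 libraries correlated best with its own number, but each had its best match within its own replicate set. Whether the numbers mark pairs was not settled, and the main fit holds no term for number or set.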

Additional observations from a re-analysis of the deposited data

Results flagged for a closer look

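A total of 92 gaps were examined in the groups of 6, where the highest or lowest log2 value was set against its nearest neighbour, and 11 exceeded Dixon's 95% critical value. Chance alone exceeds it in about 1 of 20 groups, and the values within a library are not independent.

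Of these, 6 lay in ND+CCl4 replicate 1. miR-148a (15.66) and miR-29c (12.97) were the highest of the 6 ND+CCl4 libraries there, and miR-223 (11.08), miR-486 (9.02), miR-181a (4.83) and miR-99a (3.97) were the lowest, on the log2 scale. A seventh ND+CCl4 value, miR-872 in replicate 2, was the lowest at 4.76. Among WD+oil libraries, miR-125a-5p was the highest in replicate 1 at 8.58, miR-342-3p was the highest in replicate 3 at 12.39, miR-451 was the lowest in replicate 3 at 14.73, and miR-1224 was the lowest in replicate 4 at 10.21.

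The miR-125a-5p and miR-1224 values of WD+oil each lie on the side of ND+CCl4, and the miR-342-3p value lies on the far side from it.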

How the results depend on the processing

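The count of 9 miRNAs (5 higher in ND+CCl4, 4 higher in WD+oil) ran from 4 to 12 (2 to 7 and 2 to 7) with each of the 12 libraries left out in turn, with 4 without WD+oil replicate 3 and 5 without ND+CCl4 replicate 4. Counts of all calls, then higher in ND+CCl4 and in WD+oil, were 2 (1 and 1) with the compared groups only, 15 (7 and 8) with a term for the replicate sets, 0 (0 and 0) in replicates 1 to 3 alone and 27 (11 and 16) in replicates 4 to 6 alone. They were 28 (14 and 14) with library weights, 0 (0 and 0) with spike-in scaling, 5 (2 and 3) with no filter, 5 (2 and 3) over the miRNAs above the limit in all 12 libraries, 15 (9 and 6) with edgeR and 22 (14 and 8) with DESeq2. The replicate number as a block gave 19 (8 and 11), and 21 (9 and 12) without ND+CCl4 replicate 1. Whether the numbers mark pairs was not settled, and 1 of 6 ND+CCl4 libraries correlated best with its own number.

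Without ND+CCl4 replicate 1, the count of 11 (6 and 5) was 21 (9 and 12) with the set term, 0 (0 and 0; 7 at an unadjusted p under 0.05 in limma) in replicates 1 to 3 alone, 4 (2 and 2) with no filter, 4 (3 and 1) with the haemolysis covariate, 0 (0 and 0; 19 at an unadjusted p under 0.05 in limma) with spike-in scaling, 7 (4 and 3) with background subtracted, 26 (17 and 9) with DESeq2 and 21 (10 and 11) with WD+CCl4 replicate 1 also left out. It was 4 (3 and 1) with ND+CCl4 replicate 5 also left out. The pairs of libraries, replicates 1 to 3 without replicate 1 and the 5 choices combined with leaving out replicate 1 (filter, covariate, centring, spike-in, background) were chosen after seeing the data. The difference in miRNAs above the limit reversed to -3.67 in replicates 4 to 6 alone (exact permutation p = 0.9), and miR-132 was at 0.0516 with spike-in scaling (limma adjusted p = 0.944), which raised the median of all miRNAs from 0.03 to 1.32, so its sign there follows from the scaling and it still lay below that median. Over 42 settings, the 43 named miRNAs kept direction and side of the threshold in 1430 of 1784 alternatives, and 102 lost a call; the causes were not tested. Levels under the negative control limit, 17.1 to 277 deposited units by library, limit the dim miRNAs.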

Other observations

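The panel also holds 4 messenger RNA probes, which entered no comparison. Actb, the cytoskeletal actin, read 36.1 to 1344 in ND+CCl4 (median 532), 141 to 631 in WD+oil (median 422) and 279 to 1226 in ND+oil. B2m, the light chain of class I molecules, read 20.3 to 1386 in ND+CCl4 (median 599.8), 162 to 452 in WD+oil (median 281) and 261 to 934 in ND+oil. Both were above the limit in all 12 libraries, and the lowest value of both was in ND+CCl4 replicate 1, the library that stood apart.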
